A study of Arabidopsis thaliana with 6 samples.

Results

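The seed storage globulin genes AT1G03890, PAP85, AT2G18540, AT2G28490 and AT4G36700 are described here in Arabidopsis thaliana embryos homozygous for the dcl1-15 allele. They were chosen by name, with results of these arrays known, among storage cupin and vicilin-type genes with a probe set naming a single gene. They make up 5 of the 9531 genes that could be named on the arrays. All 5 were measured by 1 probe set each, and all 5 were tested. In dcl1-15 embryos all 5 stood above wild type on every array, by log2 differences between 1.81 and 8.03, that is 3.52-fold to 261-fold. Among 2 other legumin-like cupin genes measured, 1 was called higher in dcl1-15 and 1 was not called. Of 9 measured genes for processing and sorting storage proteins 6 also rose, with BETA-VPE 10.7-fold higher in dcl1-15. Over all 17122 probe sets, 18.3% were called higher in dcl1-15 (limma adjusted p under 0.05). In 24.0% of them every dcl1-15 array stood above every wild-type array.

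Storage globulins are the nitrogen and carbon reserve that a seed lays down as it matures and breaks down when it germinates. Legumin-type globulins, called cruciferins in Arabidopsis, and vicilin-type globulins share the cupin fold, a barrel of beta strands. Both are made at the endoplasmic reticulum, carried to protein storage vacuoles, and legumins are cut there by vacuolar processing enzymes (VPEs). Their transcripts normally build up after the embryo has been patterned, under the maturation transcription factors. DCL1 is the plant Dicer protein that releases most microRNAs from their hairpin precursors.

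The comparison asks which transcripts differ when that enzyme is defective. DCL1 itself was not analysed here, so its level gives no check of the genotype labels. dcl1-15/dcl1-15 embryos were taken from DCL1/dcl1-15 plants, out of siliques whose normal siblings were torpedo-stage embryos. Wild-type embryos were DCL1/DCL1 and at the torpedo stage, from sibling plants segregating out of a DCL1/dcl1-15 parent. The background of both was Ws, crossed back to Landsberg erecta repeatedly. Each of the 3 samples per genotype pooled 300 embryos, so the values average over many embryos. The sample titles call the mutant embryos torpedo stage, while their stage field describes them by the stage of their siblings. The labels call the samples biological replicates without saying whether they came from separate plants, so p-values measure the spread between these samples. With whole embryos, more cells that make a transcript and more of it per cell cannot be told apart.

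Levels are the authors' normalized log2 values, with medians of 6.34 to 6.48 on the 6 arrays and extremes between 0.68 and 13.7. The scale has no stated detection limit, so a value near 2 or 3 has no known distance from background. Tests compare only the same probe set between genotypes. Where levels of different probe sets are set side by side or summed, this is description only. Over all 17122 probe sets tested, 18.3% were called higher and 20.8% lower in dcl1-15 at a limma adjusted p under 0.05, and the median difference was -0.07. The 5 storage genes are 5 higher calls of 5, and they had been selected with results of these arrays known, so their count carries no test. "Rose" and "fell" are used below only for genes past that threshold.

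AT1G03890 encodes a legumin-type globulin related to the cruciferins. It measured 10.62, 10.69 and 10.54 on the 3 dcl1-15 arrays, against 2.89, 1.97 and 2.90 on the 3 wild-type arrays. Its wild-type values all lay near the low end of the scale and its mutant values lay close together, with no overlap. The difference was 8.03 ± 0.30 (SE; 95% interval 7.35 to 8.70; limma adjusted p = 2.74e-06), the second largest rise of the 17122 probe sets. As a fold of normalized values this was 261-fold (95% interval 164 to 417). With all values below log2 of 4 set to 4 it was 98.0-fold, because the fold of a gene near the low end depends on where that end is set.

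PAP85 (AT3G22640) encodes a vicilin-type globulin. It measured 12.12, 12.01 and 12.11 in dcl1-15 embryos, against 4.64, 5.22 and 7.97 in wild-type embryos. The mutant arrays were nearly alike, while wild-type replicate 3 was far above the other 2. The difference was 6.14 ± 0.71 (SE; 95% interval 4.52 to 7.76; limma adjusted p = 3.39e-04), or 70.5-fold with an interval of 22.9 to 217. Leaving out wild-type replicate 3 made it 142-fold, and leaving out wild-type replicate 1 made it 44.9-fold, so the size of the rise, though not its call, depended on single wild-type arrays. Leaving out both arrays numbered 1 or both numbered 3 gave 44.2-fold and 141-fold. The lowest mutant array was still 16.4-fold above wild-type replicate 3. The SE and interval above use limma's moderated variance, the same for both genotypes. The SD of PAP85 was 0.06 in dcl1-15 and 1.78 in wild type, so they do not describe the wild-type spread alone.

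AT2G18540 encodes a cupin protein of the vicilin-like group. It measured 8.44, 8.69 and 8.61 in dcl1-15 embryos, against 2.97, 3.16 and 3.48 in wild-type embryos. All 3 wild-type values were low, and the genotypes were separated by 4.97 between their nearest arrays. The rise was 5.38 ± 0.24 (SE; 95% interval 4.82 to 5.93; limma adjusted p = 3.56e-06), 41.6-fold, or 23.9-fold with the floor at log2 of 4.

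AT2G28490, another vicilin-like cupin gene, measured 12.05, 11.98 and 11.96 in dcl1-15 embryos, against 7.65, 6.20 and 7.00 in wild-type embryos. The genotypes did not overlap, and wild-type replicate 1 rather than replicate 3 was the highest of its genotype. The rise was 5.04 ± 0.31 (SE; 95% interval 4.33 to 5.76; limma adjusted p = 1.35e-05), or 33.0-fold. The gap between the nearest arrays of the genotypes was 4.31.

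AT4G36700, the last of the vicilin-like genes, was the one already bright in wild type. It measured 12.26, 12.01 and 12.25 in dcl1-15 embryos, against 10.24, 10.31 and 10.53 in wild-type embryos. Both genotypes were tight and did not overlap. Its rise of 1.81 ± 0.12 (SE; 95% interval 1.54 to 2.09; limma adjusted p = 1.71e-05) was 3.52-fold, and its interval lay below those of the other 4 genes. By the size of their difference the 5 genes ranked 2, 17, 39, 52 and 817 among all probe sets, in the order AT1G03890, PAP85, AT2G18540, AT2G28490 and AT4G36700. The intervals of neighbours in this order overlapped among the first 4 genes.

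**Figure D1:**
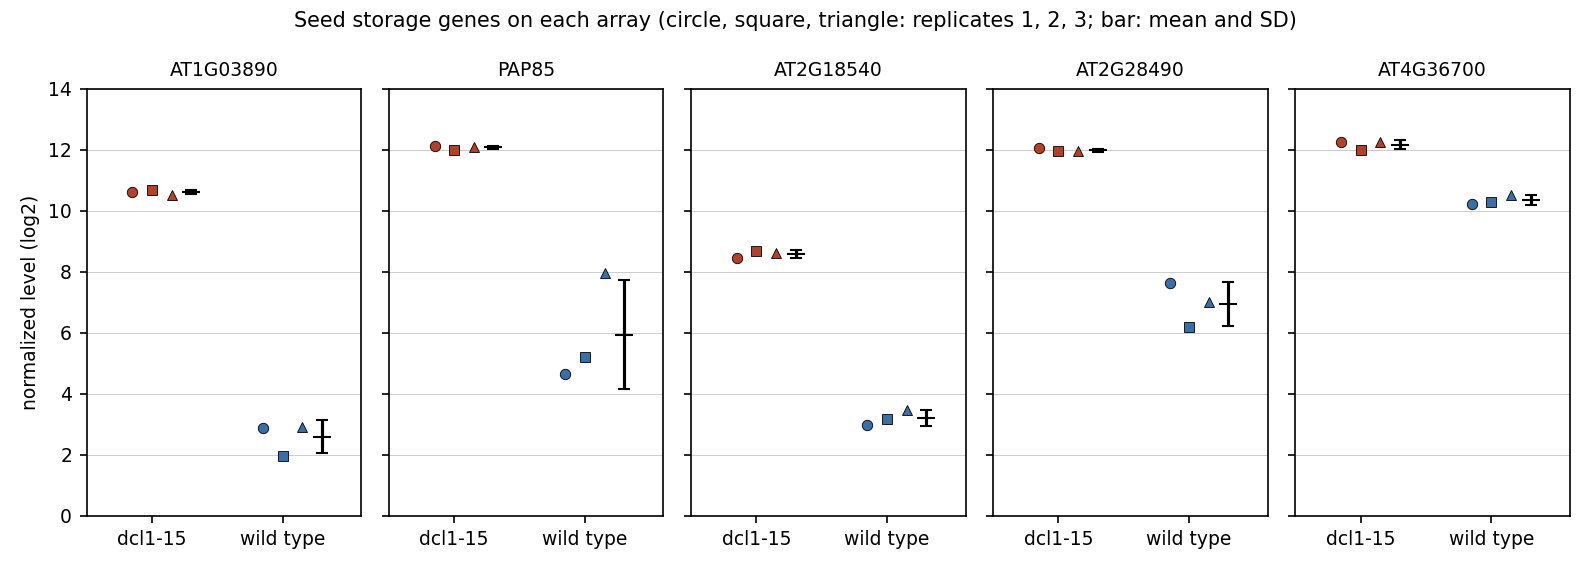
Normalized log2 level of each of the 5 storage genes on every array, dcl1-15 left of wild type, with circle, square and triangle for replicates 1, 2 and 3 and a bar for the mean and SD. All dcl1-15 points lie above all wild-type points in every panel, and the wild-type points of PAP85 spread from 4.64 to 7.97.

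The mutant arrays lay closer to each other than the wild-type arrays did in every one of the 5 genes. The SD over 3 arrays was 0.05 to 0.14 in dcl1-15, against 0.15 to 1.78 in wild type. Over all probe sets the median SD was 0.21 in dcl1-15 and 0.27 in wild type, and 62.7% of probe sets had the larger SD in wild type. PAP85 had an SD of 0.06 in dcl1-15 and 1.78 in wild type, and only 0.199% of probe sets had a larger wild-type SD. For AT2G28490 the SD was 0.05 in dcl1-15 and 0.72 in wild type, and for AT4G36700 it was 0.14 in dcl1-15 and 0.15 in wild type. PAP85, AT2G28490 and AT4G36700 all ended close to log2 of 12 in dcl1-15, a level reached by 0.929% to 0.940% of probe sets on the dcl1-15 arrays and by 0.794% to 1.00% on the wild-type arrays. Whether signal near the top of the scale was compressed was not tested.

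In 4 of the 5 genes, all but AT2G28490, wild-type replicate 3 was the brightest of its genotype. The margin was 2.76 for PAP85 over the next wild-type array and 0.01 for AT1G03890. An exact two-sided permutation test gave p = 0.1 for each gene, which is the smallest value that 3 arrays against 3 allow. Groups that did not overlap with dcl1-15 higher were found in 24.0% of all probe sets.

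**Figure D2:**
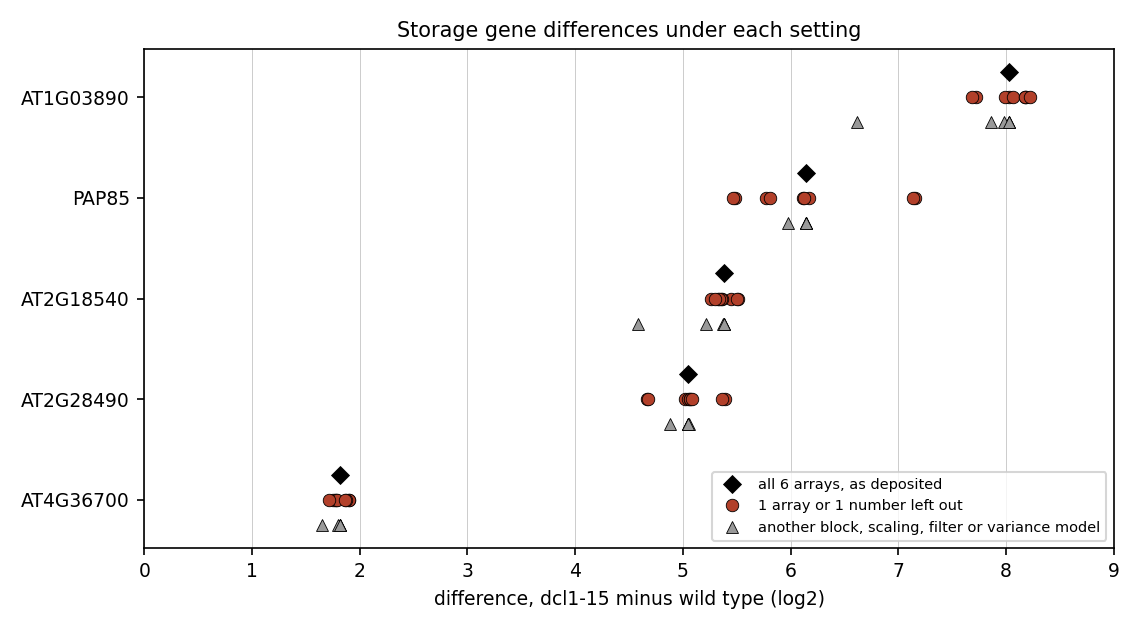
Difference between dcl1-15 and wild type on the log2 scale for each storage gene, with all arrays (diamonds), with 1 array or 1 replicate number left out (circles) and with another block, scaling, filter or variance model (triangles). All values stay above 0, and PAP85 spreads widest among the circles, from 5.47 to 7.15.

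Of the other legumin-like cupin genes listed, 2 were measured, 1 of which rose. AT1G07750 rose to 10.23, 9.56 and 9.88 in dcl1-15 embryos, against 8.46, 7.44 and 6.99 in wild-type embryos, a difference of 2.26 ± 0.36 (SE; limma adjusted p = 0.00156). AT2G28680 stayed at the low end of the scale, at 1.46 to 1.95 in dcl1-15 and 1.45 to 1.62 in wild type, and did not pass (difference 0.18 ± 0.14, adjusted p = 0.345). The main cruciferin and albumin genes were not analysed here.

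Germin-like proteins share the cupin fold but are cell wall proteins with no storage role known. Of 7 such genes measured, 4 rose and 3 did not pass, with a median difference of 1.21, against -0.07 over all probe sets. AT5G26700 averaged 8.81 ± 0.79 in dcl1-15 and 6.92 ± 0.66 in wild type (SD, n = 3 each; difference 1.89, limma adjusted p = 0.00962). AT5G38960 rose by 1.51 and AT5G39130 by 1.36 on the log2 scale. The fourth to rise, AT3G04200, is named after its values were seen, and rose by 1.21 from a wild-type mean of 2.65. The highest of the 4, 1.89, was slightly above the smallest rise among the storage genes, 1.81 for AT4G36700. With the floor at log2 of 4 the count fell to 2, and without both arrays numbered 2 it fell to 1. AT3G04200 did not pass with the floor (1.10-fold, against 2.31-fold as deposited; adjusted p = 0.531), nor without both arrays numbered 2 or both numbered 3 (adjusted p = 0.0794 and 0.0618). AT5G38960 did not pass without both arrays numbered 2 (adjusted p = 0.106). AT5G26700 did not pass with the floor (adjusted p = 0.0664) or without both arrays numbered 2 (adjusted p = 0.0874), and its rise was 2.58 without both arrays numbered 3.

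Most genes listed for the handling of storage proteins on their way to the vacuole and inside it rose. Of 9 genes measured for processing and sorting of storage proteins, 6 rose and 3 did not pass, with a median difference of 1.25. BETA-VPE, the processing enzyme best known for cutting storage globulins in seeds, measured 11.81, 11.85 and 11.95 in dcl1-15 embryos, against 8.57, 8.37 and 8.43 in wild-type embryos. Both genotypes were tight and far apart. The difference was 3.42 ± 0.12 (SE; 95% interval 3.13 to 3.70; limma adjusted p = 2.74e-06), or 10.7-fold. ALPHA-VPE, an enzyme of the same family, measured 8.52, 8.79 and 8.56 in dcl1-15 embryos, against 6.54, 6.03 and 5.89 in wild-type embryos, a rise of 2.47 ± 0.24 (adjusted p = 1.26e-04). DELTA-VPE, known from the inner seed coat, measured 10.40, 10.68 and 10.93 in dcl1-15 embryos, against 7.23, 9.77 and 8.58 in wild-type embryos. Its wild-type arrays were widely spread, and wild-type replicate 2 came within 0.63 of the lowest mutant array. Its rise of 2.15 ± 0.52 (adjusted p = 0.0120) was 4.42-fold. Dropping wild-type replicate 1 gave 2.82-fold, dropping wild-type replicate 2 gave 6.81-fold, and the call was lost with the floor (adjusted p = 0.0872) and without both arrays numbered 3 (adjusted p = 0.0816).

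The rest of this list was named after its values were seen. The aspartic protease genes AT4G04460, AT1G62290 and APA1, whose products reside in vacuoles, rose by 1.45, 1.25 and 0.54 on the log2 scale. APA1, with the smallest of these rises, averaged 12.51 ± 0.04 in dcl1-15 and 11.97 ± 0.03 in wild type (SD, n = 3 each). GAMMA-VPE, the vacuolar processing enzyme known from vegetative organs, differed by 0.30 ± 0.14 (SE; adjusted p = 0.124) and so did not pass. MAG2, a factor in the export of storage proteins from the endoplasmic reticulum, differed by 0.13 ± 0.26 (adjusted p = 0.726). The sorting receptor gene AT1G71980 differed by -0.51 ± 0.21 (adjusted p = 0.0926). It passed as lower with the replicate number as a block (adjusted p = 0.0368) and with arrays centred on reference genes (adjusted p = 0.0313).

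**Figure D3:**
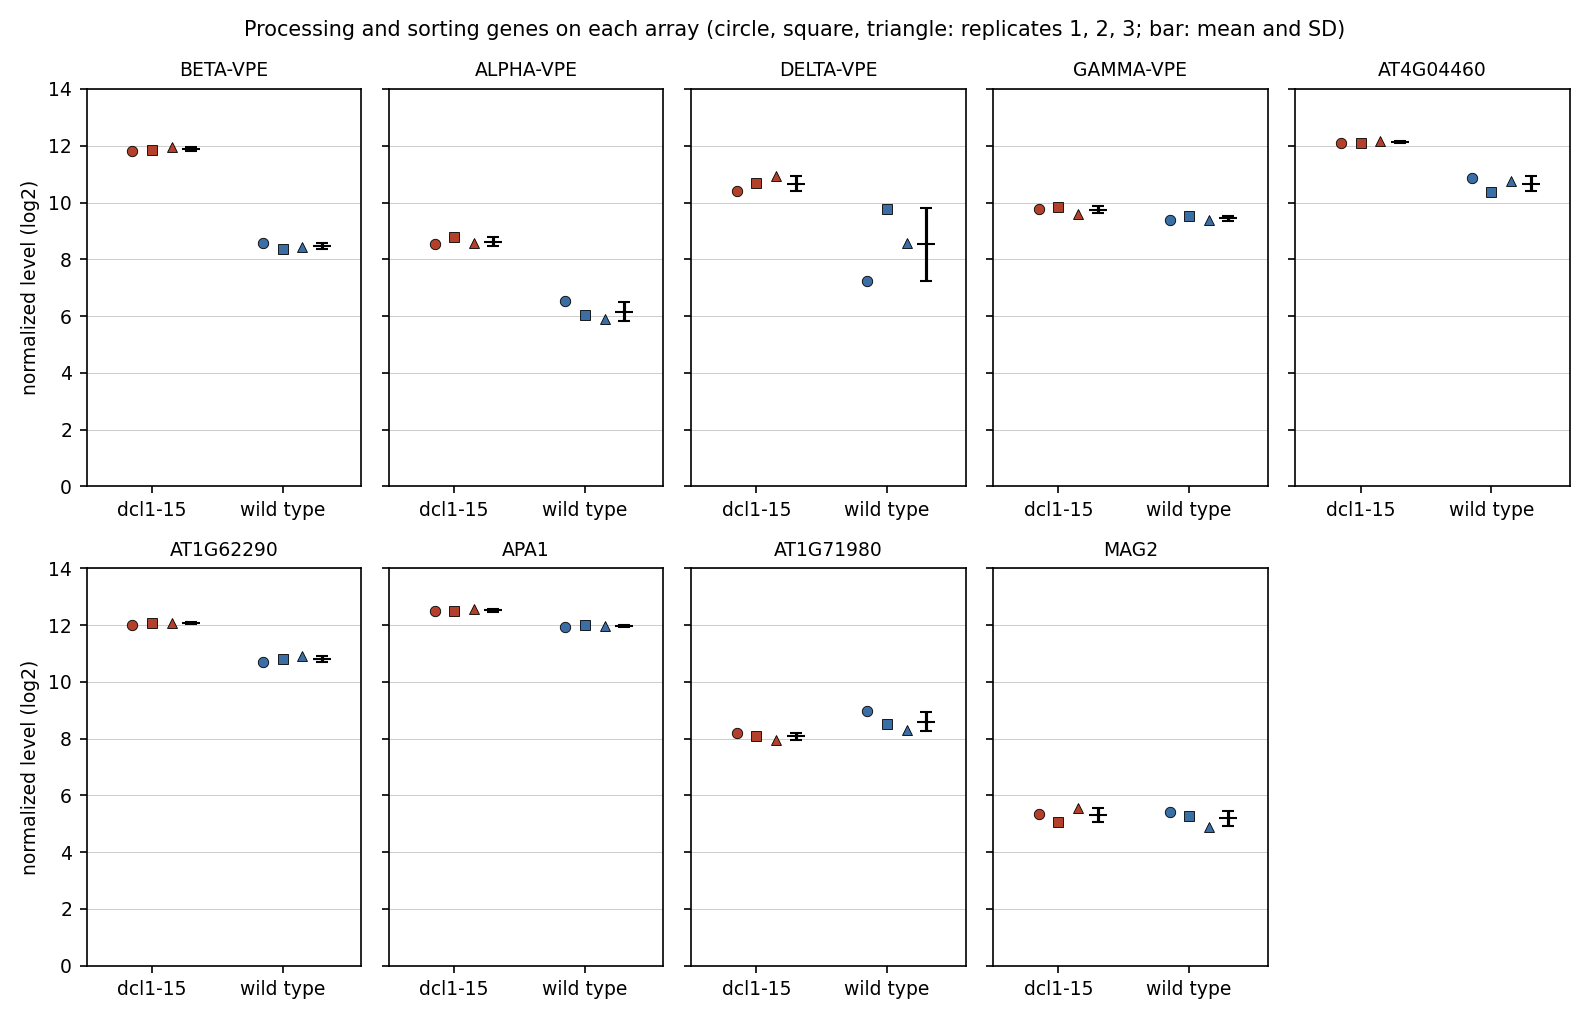
Normalized log2 level of the 9 processing and sorting genes on every array, dcl1-15 left of wild type, with circle, square and triangle for replicates 1, 2 and 3 and a bar for the mean and SD. BETA-VPE lies at 11.81 to 11.95 in dcl1-15 and at 8.37 to 8.57 in wild type, whereas MAG2 overlaps between genotypes.

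Of the regulators of seed maturation, 3 were measured, of which 2 rose. AGL18, a MADS-box factor of embryos, averaged 10.23 ± 0.32 in dcl1-15 and 8.46 ± 0.56 in wild type (SD, n = 3 each; difference 1.77, limma adjusted p = 0.00176). EEL, a bZIP factor of late embryos, averaged 11.41 ± 0.06 in dcl1-15 and 10.52 ± 0.15 in wild type (difference 0.88, adjusted p = 5.91e-04). BZIP53, which activates storage protein genes, measured 9.62 to 9.79 in dcl1-15 and 9.63 to 9.85 in wild type, and its difference of -0.08 did not pass (95% interval -0.40 to 0.23). The regulators LEC1, LEC2, FUS3 and ABI3 were not analysed here.

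All 4 measured genes of oil bodies, the other large seed reserve, rose. The oleosin-family genes AT3G18570 and AT3G01570 rose by 2.62 and 2.59, and OLEO3, already at 12.23 ± 0.21 in wild type, rose by 0.66. AT2G25890 rose by 0.75 from a wild-type mean of 2.94 (adjusted p = 0.0443), a call lost under 10 of the 14 alternatives in which it was fitted. The median difference of the 4 was 1.67, against 5.38 for the storage genes and -0.07 for all probe sets.

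Most measured markers of the tissues around the embryo also rose. Of 7 genes listed for seed coat and endosperm, 5 rose and 2 did not pass, with a median difference of 1.62. The 2 were AT5G26630, which differed by -0.15, and IKU1, a gene of endosperm growth, which differed by -0.31 and was called lower without wild-type replicate 1 (adjusted p = 0.0410). The sugar transporter gene SWEET11 averaged 10.56 ± 0.02 in dcl1-15 and 8.94 ± 0.29 in wild type, and AT1G71250 11.33 ± 0.05 in dcl1-15 and 10.18 ± 0.35 in wild type (SD, n = 3 each). These 4 genes are named after their values were seen. Over all 7 listed genes, the log2 of the summed linear level was 12.53 to 12.76 on dcl1-15 arrays, against 11.17 to 11.36 on wild-type arrays. BAN, an enzyme of seed coat tannins, measured 3.90, 4.46 and 4.91 in dcl1-15 embryos, against 1.53, 3.65 and 2.56 in wild-type embryos. DFR, an earlier enzyme of the same pathway, measured 8.66, 9.64 and 9.93 in dcl1-15 embryos, against 6.60, 8.56 and 7.98 in wild-type embryos. Among wild-type arrays BAN, DFR and DELTA-VPE were highest on replicate 2 and lowest on replicate 1, whereas SWEET11 and AT1G71250 were highest on replicate 1. PAP85, AT2G18540 and AT4G36700 were lowest on replicate 1, and AT1G03890 and AT2G28490 on replicate 2. DELTA-VPE stands on both this list and the processing list. With the floor 2 of the 7 rose, 3 without dcl1-15 replicate 2 or replicate 3, and 2 without both arrays numbered 3. BAN did not pass in these 4 fits, nor did DFR, which was also lost without both arrays numbered 2. The part of these tissues in the storage gene rise was not tested.

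Of 5 measured embryo markers, 3 fell and 2 did not pass. The 2 were YAB5, which differed by 0.34 (limma adjusted p = 0.441), and PHV, which differed by -0.36 (adjusted p = 0.123). PHV was called lower with arrays centred on reference genes (adjusted p = 0.0369). Both are named after their values were seen. YAB3, a transcription factor gene of lateral organs, measured 6.98, 6.44 and 7.31 in dcl1-15 embryos, against 10.47, 10.94 and 11.04 in wild-type embryos. BBM (BABY BOOM), an AP2-domain factor that can drive embryo growth, fell by 1.59 on the log2 scale (adjusted p = 0.00331), and CLV3, which encodes a small signalling peptide of shoot stem cells, fell by 1.44 from a low wild-type mean of 3.07. CLV3 did not pass with the floor or without both arrays numbered 2. Of 6 genes used as expression references, GAPC2 rose by 0.50 (adjusted p = 0.00865) and 5 did not pass, with a median of 0.16 over the list. The call of GAPC2 was lost without both arrays numbered 2 and without both numbered 3.

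**Figure D4:**
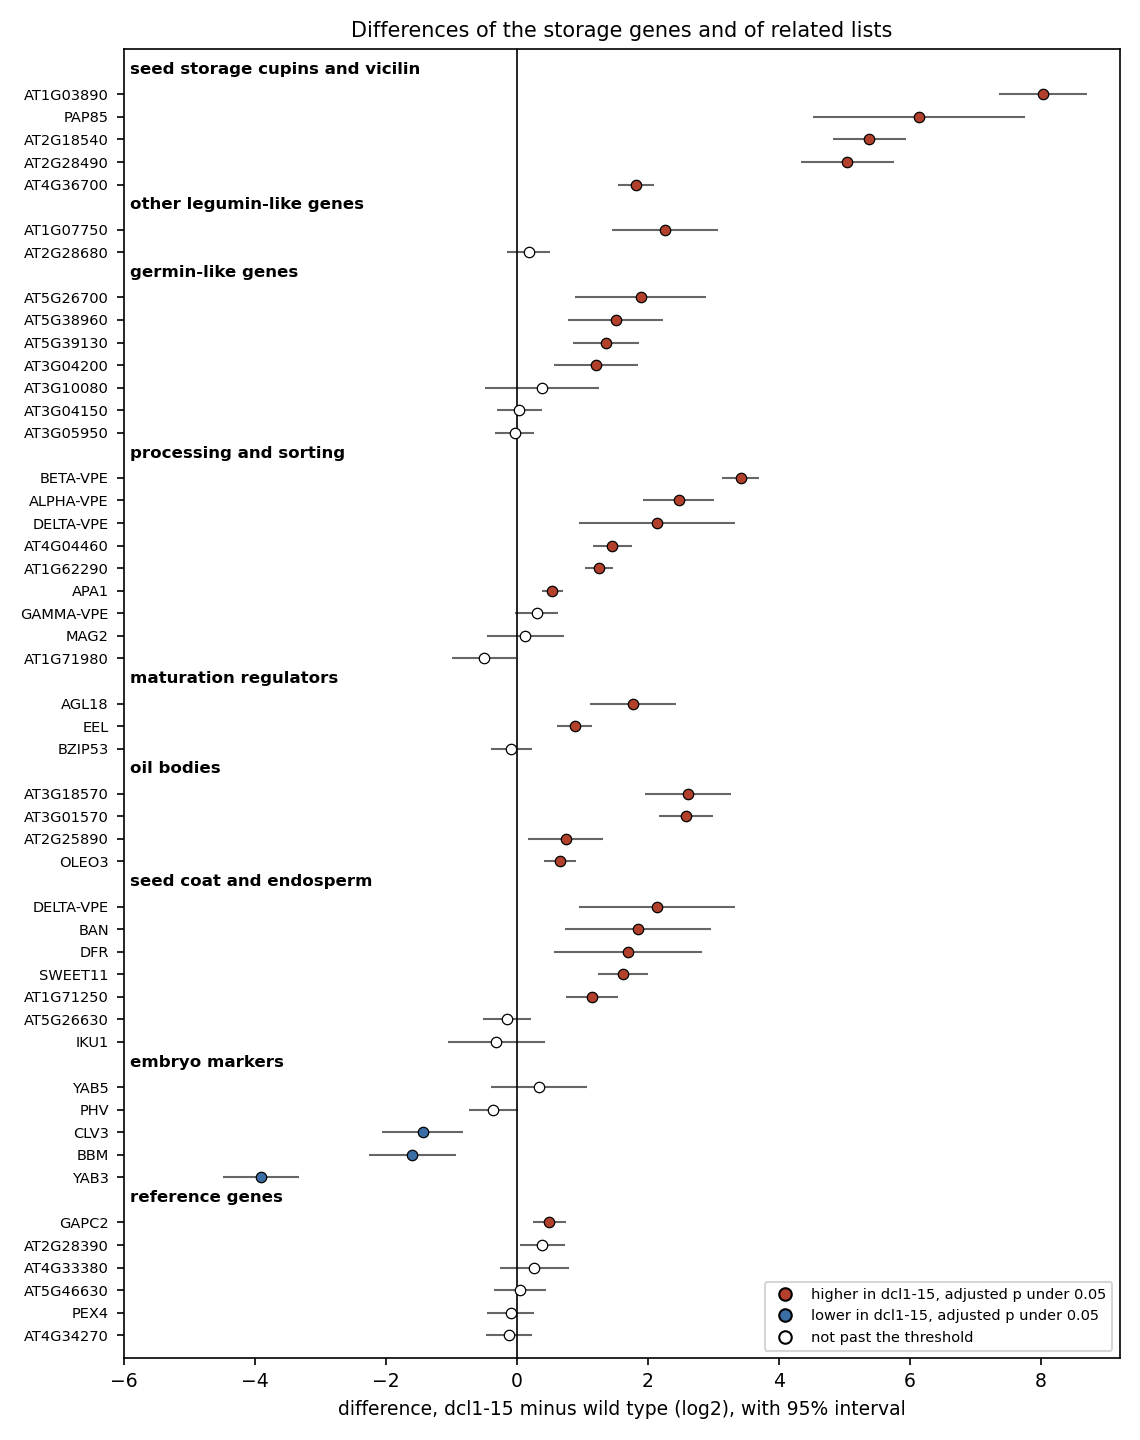
Difference between dcl1-15 and wild type on the log2 scale, with its 95% interval, for the 5 storage genes and the measured genes of 8 related lists. Filled points passed the threshold, in red when higher and in blue when lower in dcl1-15, and 4 of the 5 storage genes lie to the right of every gene on the other lists.

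The genes with the most similar profile over the 6 arrays were found by Pearson's correlation with each storage gene among 9526 other genes. As both genotypes form separate clusters, a high value mostly states a shared genotype difference, and it is given as a description. LBD16, a factor of lateral root formation, was the nearest to AT2G18540 (r = 0.9995), followed by the terpene synthase gene AT5G44630 (r = 0.9992). ATOEP16-2, a plastid envelope channel gene known from seeds, and AT1G27461 were nearest to AT2G28490 (r = 0.9996 and 0.9994). AT5G59170 and AT5G46230 were nearest to AT1G03890 (r = 0.9996 and 0.9995), with rises of 1.76 and 5.58. The rise of AT5G46230 was 3.51 with the floor at log2 of 4.

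PAP85 had fewer close companions, with 7 genes at r of at least 0.99, against 128 for AT1G03890, 107 for AT2G18540, 81 for AT2G28490 and 34 for AT4G36700. Its nearest was AT4G21020, a gene for a late embryogenesis abundant protein (r = 0.9960). That gene averaged 10.71 ± 0.27 in dcl1-15 and 4.24 ± 1.51 in wild type (SD, n = 3 each), so it shared the wide wild-type spread. Its difference was 6.47, and 7.34 without wild-type replicate 3. AT1G73200 followed at r = 0.9953 with a rise of 1.27, a call lost without both arrays numbered 2 (adjusted p = 0.0802). For AT4G36700 the nearest were AT4G26060 and AT1G55840 (r = 0.9980 and 0.9977), with rises of 1.17 and 1.36, of which that of AT4G26060 did not pass without both arrays numbered 2 (adjusted p = 0.0651).

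The nearest measured genes on the chromosome were called about as often as probe sets in general. Most were not adjacent, and the farthest lay 11 genes away around AT2G28490 and 24 around AT4G36700. Of the directly adjacent genes only AT4G36690, next to AT4G36700, was measured by a probe set naming a single gene. The 5 nearest measured genes on each side of the 5 storage genes made 50 neighbours, of which 11 rose and 10 fell, beside 18.3% and 20.8% of all probe sets. The median difference of the 10 neighbours ran from -0.25 around AT1G03890 to 0.13 around AT4G36700. Adjacent on the chromosome to AT1G03890 is the cruciferin locus AT1G03880, which was not analysed here.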

How the data were processed

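Embryo RNA from 6 samples was measured on single-colour arrays, with 50 ng of starting RNA amplified to biotin-labelled cDNA per the labels' protocols. The deposited values are normalized log2 levels. GCRMA and MAS5 are named per the submitters' processing notes, without saying which made these values. Of 17159 probe sets, 37 array controls were set aside. The platform annotation names 1 gene for 9631, several for 365 and none for 7126, and 9584 of the first were found in the RefSeq table of assembly TAIR10.1 by gene identifier. For genes with more than 1 probe set the brightest was used.

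The comparison of genotypes used limma 3.58.1 (R 4.3.3, lmFit, then trended eBayes). P-values were adjusted by Benjamini-Hochberg over 17122 probe sets, with a threshold of 0.05. The fit was tried on simulated arrays with the same spread in both genotypes and no correlation by replicate number. That trial does not cover the unequal spreads and correlated arrays of these data. The storage genes and lists were chosen with earlier results of these data known. Genes named are the 5 storage genes, up to 3 called genes with the largest difference from each list, all genes of lists with up to 4 measured, and the 2 most similar profiles per storage gene. The symbol GER2 was dropped from the germin-like list because it stands for another enzyme here, and the list of maturation repressors had no measured member.

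Deviations from the genotype means correlated at 0.48, 0.21 and 0.36 within the pairs numbered 1, 2 and 3. However, dcl1-15 replicate 3 correlated with wild-type replicate 2 at 0.31, above the 0.21 within number 2. The labels do not say what a number marks, so whether the numbers pair the samples is not known. The main fit did not use the numbers. The number of arrays limits the precision. Alternatives were the replicate block, a floor at log2 of 4, a filter on dim probe sets, quantile normalization, centring on 6 reference genes, no intensity trend, and leaving out each array or each replicate number.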

Additional observations from a re-analysis of the deposited data

How the results depend on the processing

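All 5 storage genes kept their direction and their call under all 15 alternatives, with adjusted p of at most 0.0141. Their differences ran from 6.61 to 8.23 for AT1G03890, 5.47 to 7.15 for PAP85, 4.58 to 5.51 for AT2G18540, 4.67 to 5.39 for AT2G28490 and 1.65 to 1.90 for AT4G36700. With the replicate number as a block the 5 differences were as without it and all passed, and among the listed genes AT1G71980 was called lower in addition (1 lower call on the processing list, as with centring on reference genes). The block changed no other call on these lists. Centring on reference genes moved the median of all probe sets to -0.23 and the share of higher calls among all calls to 33.5%, against 46.9% as deposited. The reference genes were themselves higher in dcl1-15 on average (median difference 0.16), so centring lowered every difference by the same amount.

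Over 52 further genes, 767 refitted values gave 729 with the same call, 33 that lost it and 5 that gained it, and no direction of a called value turned in these fits. With the floor at log2 of 4 the higher calls were 2 germin-like genes, 2 seed coat and endosperm markers and 2 reference genes. Leaving out both arrays of 1 number, the germin-like count ranged from 1 to 4, the marker count from 2 to 5 and the reference gene count from 0 to 1. Leaving out single arrays, the marker list had 3 to 5 higher calls and 0 to 1 lower calls, the lower one (IKU1) without wild-type replicate 1. With only probe sets whose mean was at least log2 of 5, 3 of the 5 embryo markers entered the fit and 1 was called lower, and with centring on reference genes 4 were. Causes were not tested, except that fewer arrays or probe sets enter some fits.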
